A study of Homo sapiens with 4 samples.

Results

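The 10 RNAs described here are small noncoding RNAs made by RNA polymerase III: RMRP and RPPH1, the RNA subunits of RNase MRP and RNase P, the 7SL RNAs RN7SL1 and RN7SL2, the Alu-derived RNA BCYRN1, the Y RNAs RNY1 and RNY3, and the vault RNAs VTRNA1-1, VTRNA1-2 and VTRNA1-3. They are 10 of the 58302 genes in the deposited table and were taken by symbol, and where a symbol had several rows the row with the highest mean was used. They were selected on their TPM in these 4 libraries and on the contrast between the stages, so their stage differences are given as a description without a test. The values come from RNA sequencing of total RNA from BLaER1, a human B cell leukaemia line that carries C/EBPα joined to the hormone-binding part of the oestrogen receptor and can be turned into macrophage-like cells. The 2 differentiated libraries came from cells transdifferentiated over 5 to 6 days in M-CSF, IL-3 and 100 nM oestradiol, and the other 2 are labelled undifferentiated. The treatment text stands on all 4 records, and it is assigned to the differentiated libraries here from their stage labels. The concentration of 10 ng/ml is written before IL-3 only. All 4 libraries come from this 1 line, and separate cultures within a stage are not recorded, so a p-value covers only the spread among the libraries, part of which may be technical. In RNA from whole cultures, fewer cells of a type and less RNA per cell cannot be told apart.

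RNase P removes the leader from precursor tRNAs and RNase MRP cuts precursor ribosomal RNA, and both use nearly the same set of proteins around a catalytic RNA. The 7SL RNA is the scaffold of the signal recognition particle (SRP), which brings ribosomes that make secreted proteins to the endoplasmic reticulum, and BCYRN1 descends from the same Alu domain and is known mainly from neurons and tumours. Y RNAs are bound by the Ro60 and La proteins, and vault RNAs sit in the large barrel built of the major vault protein.

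The stage labels matched the markers of both cell types. TPM are the reads assigned to a gene, corrected for its length and scaled to the same sum in every library. The summed TPM of 7 B lineage markers was 216 to 342 in the undifferentiated and 10.6 to 11.2 in the differentiated libraries. That of 6 macrophage markers was 6.22 to 7.96 and 605 to 665 in the same order. The 6 markers of T cells, red cells and fibroblasts summed to at most 0.73 TPM in any library, with CD3D, CD3E and HBA1 at 0 in all 4. Sequencing depth is unknown, since TPM does not carry it. The 2 undifferentiated libraries differed from each other by a median of 0.50 (replicate 1 higher) on the log2(TPM + 1) scale over the 10180 genes that reached 1 TPM in 2 libraries or more.

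Of the 10 RNAs, 5 were listed above 0 in all 4 libraries (RN7SL1, RN7SL2, RMRP, RPPH1 and BCYRN1), 2 in some libraries (RNY1 and RNY3) and 3 in none (the vault RNAs). With RNY1, 6 passed the filter of 1 TPM in 2 libraries. RN7SL1 was the most abundant of them in every library and RPPH1 and BCYRN1 came last among the 5. RN7SL2 stood above RMRP in 3 libraries and just below it in undifferentiated replicate 2. The 5 RNAs made up 10.3% and 10.7% of all TPM after differentiation and 8.5% and 11.2% before it. The stages overlapped for RMRP, RPPH1 and RN7SL1 and not for RN7SL2 and BCYRN1. Of all genes that passed the filter, 70% did not overlap between the stages, 31% with the differentiated and 39% with the undifferentiated libraries higher.

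**Figure D1:**
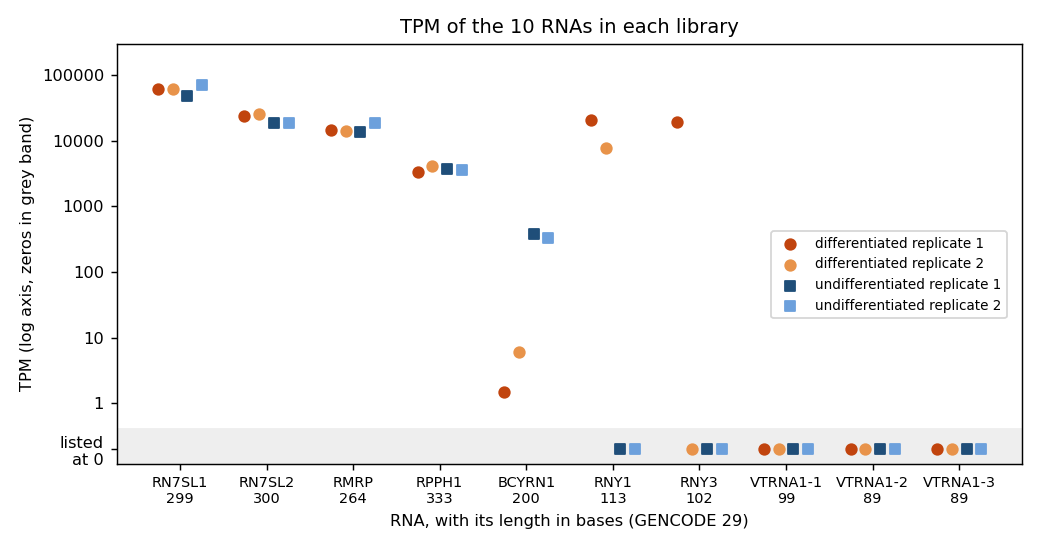
TPM on a log axis for each of the 10 RNAs, 1 point per library, with values of 0 drawn in the grey band and RNA lengths under the names. The 4 longest RNAs lie at similar levels in both stages, BCYRN1 is low in both differentiated libraries, and every value of 0 belongs to an RNA of 113 bases or fewer.

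The catalytic RNAs of RNase MRP and RNase P were abundant and had overlapping stages. RMRP was listed at 14861 and 14088 TPM in differentiated replicates 1 and 2 and at 13850 and 18633 TPM in undifferentiated replicates 1 and 2. The highest and the lowest of these values are both undifferentiated. The means were 14475 ± 547 and 16241 ± 3382 TPM (SD, n = 2), a difference of -0.15 on the log2(TPM + 1) scale (differentiated minus undifferentiated, as for every difference below). RPPH1 stood at 3326 and 4099 TPM after differentiation and at 3668 and 3637 TPM before it. Its undifferentiated values lie between its differentiated ones, and the difference was 0.02. Within a library RMRP was 4.47 and 3.44 times as abundant as RPPH1 after differentiation and 3.78 and 5.12 times before it, so this ratio, which scaling a whole library leaves unchanged, overlapped between the stages as well.

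The RMRP symbol has 2 rows whose transcripts in GENCODE release 29 (GRCh38) differ by 4 bases at the ends. The longer transcript is shown because the whole of the shorter one lies inside it, with the additional bases in capitals.
RMRP: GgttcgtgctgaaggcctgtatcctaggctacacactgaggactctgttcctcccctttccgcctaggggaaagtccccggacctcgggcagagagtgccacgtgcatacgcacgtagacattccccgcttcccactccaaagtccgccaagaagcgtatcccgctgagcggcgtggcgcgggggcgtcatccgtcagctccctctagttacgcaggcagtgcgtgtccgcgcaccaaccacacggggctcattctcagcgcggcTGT
The row not used, of 268 bases, held 103 and 22.7 TPM in the differentiated and 9.32 and 41.8 TPM in the undifferentiated libraries, against at least 13850 TPM for the row of 264 bases. All 215 windows of 50 bases in the shorter RMRP also occur in the longer one. Reads that lie within the shorter transcript therefore cannot be told apart between the rows. RPPH1 lies likewise inside AL355075.4, a gene of 638 bases on the same strand that holds all 284 of its windows. AL355075.4 was listed at 59.3 and 38.4 TPM after differentiation and at 0.61 and 0.57 TPM before it, against at least 3326 TPM for RPPH1.

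The 7SL RNA was present at the highest level of the 10, as RN7SL1, in every library. RN7SL1 stood at 61094 and 62651 TPM after differentiation and at 48266 and 70443 TPM before it, with the undifferentiated values on both sides of the differentiated ones (difference 0.09). RN7SL2 stood at 23844 and 25954 TPM after differentiation and at 18875 and 18467 TPM before it. Both differentiated values of RN7SL2 are the higher ones, with means of 24899 ± 1492 and 18671 ± 289 TPM (SD, n = 2) and a difference of 0.41. The third copy, RN7SL3, was listed at 45.7 to 74.9 TPM over the 4 libraries.

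RN7SL1 and RN7SL2 are near-identical copies. All 250 windows of 50 bases in RN7SL1 and 217 of 251 in RN7SL2 occur in another gene of the table, and among the 10 other genes for each is the other 7SL copy. The other genes also include AL139099.5, which lies over the same stretch as RN7SL1. Windows shared between RN7SL1 and RN7SL2 were not counted separately. The authors' estimator divides reads that match several genes, so the split between the copies is uncertain. RN7SL2 amounted to 0.39 and 0.414 of RN7SL1 in the differentiated and to 0.391 and 0.262 in the undifferentiated libraries. The low ratio is that of undifferentiated replicate 2 alone. The sum of both copies was 84939 and 88605 TPM in the differentiated and 67141 and 88909 TPM in the undifferentiated libraries, which overlap, and its difference was 0.17.

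Other copies of 7SL were listed at low values. Of 678 other rows whose symbol starts with RN7SL, 129 were above 0 in at least 1 library. They summed to 207 and 151 TPM in the differentiated and 81.9 and 86.6 TPM in the undifferentiated libraries. These sums include RN7SL3, with 73.6 and 74.9 TPM in the differentiated and 45.7 and 57.9 TPM in the undifferentiated libraries. A further 169 rows named Metazoa_SRP summed to at most 5.68 TPM. AL139099.5, a gene of 300 bases over the same stretch and strand as RN7SL1, was listed at 0 in both differentiated and at 28.4 and 24.9 TPM in the undifferentiated libraries. RPS29, a ribosomal protein gene that overlaps RN7SL1 on the opposite strand, was listed at 163 and 177 TPM after differentiation and at 1899 and 1411 TPM before it. Whether reads were counted by strand is not given in the sources, and a part of RPS29 in the RN7SL1 value was not tested.

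BCYRN1, also called BC200, had the widest gap between the stages among the 5 RNAs seen in every library. Its values were 1.46 and 6.12 TPM after differentiation and 381 and 333 TPM before it. Both undifferentiated values are the high ones, and the means were 3.79 ± 3.3 and 357 ± 34.5 TPM (SD, n = 2), a difference of -6.42. These values belong to the contrast on which the RNA was chosen. The summed TPM of the 7 B lineage markers moved in the same direction (10.6 to 11.2 against 216 to 342), and its part in the BCYRN1 values was not tested. In differentiated replicate 1 the value was near the smallest that the table gives for an RNA of this size. There 26 genes of 190 to 210 bases were above 0 and 8 of them lay below BCYRN1, the lowest at 1.02 TPM. In differentiated replicate 2 the lowest of 17 such genes was at 1.33 TPM, and BCYRN1 stood 4.6 times above it. The corresponding multiples were 454 and 302 in the undifferentiated libraries.

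Of the 151 windows of 50 bases in BCYRN1, 0 occur in another gene of the table. Only exact matches in annotated transcripts were searched, so copies with mismatches and RNA outside the annotation are not covered. The only gene that overlaps it, AC106869.1 on the opposite strand, was listed at 0.06 TPM in differentiated replicate 1 and at 0 elsewhere. For each BCYRN1 TPM there were 41845 and 10237 TPM of RN7SL1 in the differentiated and 127 and 212 TPM in the undifferentiated libraries.

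The Y RNAs were the only members above 0 in some libraries and at 0 in others. RNY1 was listed at 20650 and 7700 TPM in differentiated replicates 1 and 2 and at 0 in both undifferentiated libraries. RNY3 was listed at 19136 TPM in differentiated replicate 1 and at 0 in the other 3 libraries. VTRNA1-1, VTRNA1-2 and VTRNA1-3 were listed at 0 in all 4. Y RNAs are made in nearly every cell. RNU6-1, a row of 107 bases for the U6 RNA of the major spliceosome, was at 0 in all 4 libraries too. This includes differentiated replicate 1, where the shorter RNY3 was above 0. The cause of the zeros was not tested. An exact 0 in this table can be a failed estimate, so no fold is given and the values stand only as listed.

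The 5 RNAs concerned are the 5 shortest of the 10, and the vault RNAs are shown because they are the shortest of all and were at 0 in every library. Capitals mark their common start.
VTRNA1-1: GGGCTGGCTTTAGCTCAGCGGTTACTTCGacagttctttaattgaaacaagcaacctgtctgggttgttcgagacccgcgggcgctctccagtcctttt
VTRNA1-2: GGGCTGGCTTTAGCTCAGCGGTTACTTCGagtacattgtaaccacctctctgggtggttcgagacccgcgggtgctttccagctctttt
VTRNA1-3: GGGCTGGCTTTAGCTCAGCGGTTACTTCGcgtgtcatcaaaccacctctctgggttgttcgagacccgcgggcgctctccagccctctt
RNY1 is 113 bases long and RNY3 102 bases. VTRNA1-1 has 99 bases, VTRNA1-2 and VTRNA1-3 have 89 bases each, and the first 29 bases are the same in all of them.

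The shortest length of a gene listed above 0, called the limit here, differed between the libraries. Among 35582 genes with a single transcript length in GENCODE release 29, the shortest above 0 had 102 bases in differentiated replicate 1, 109 in differentiated replicate 2, 128 in undifferentiated replicate 1 and 122 in undifferentiated replicate 2. By definition of the limit, all 3151, 4743, 5859 and 5644 shorter genes were at 0 in the respective library. RNY1 is longer than this limit in both differentiated libraries and shorter in both undifferentiated ones, and RNY3 reaches it only in differentiated replicate 1, where 10 genes of its length were above 0. The vault RNAs are below it everywhere. An RNA shorter than the limit is at 0 by definition. None of the 10 RNAs was at 0 in a library whose limit it reaches, but RNY3 is itself among the genes that set the limit of differentiated replicate 1. Of 2493 genes of 102 to 121 bases, 67 and 19 were above 0 in differentiated replicates 1 and 2. This range was set from the limits themselves, so the 0 in either undifferentiated library follows from the choice of range. A stage difference in Y RNA abundance and this difference in limits cannot be told apart.

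**Figure D2:**
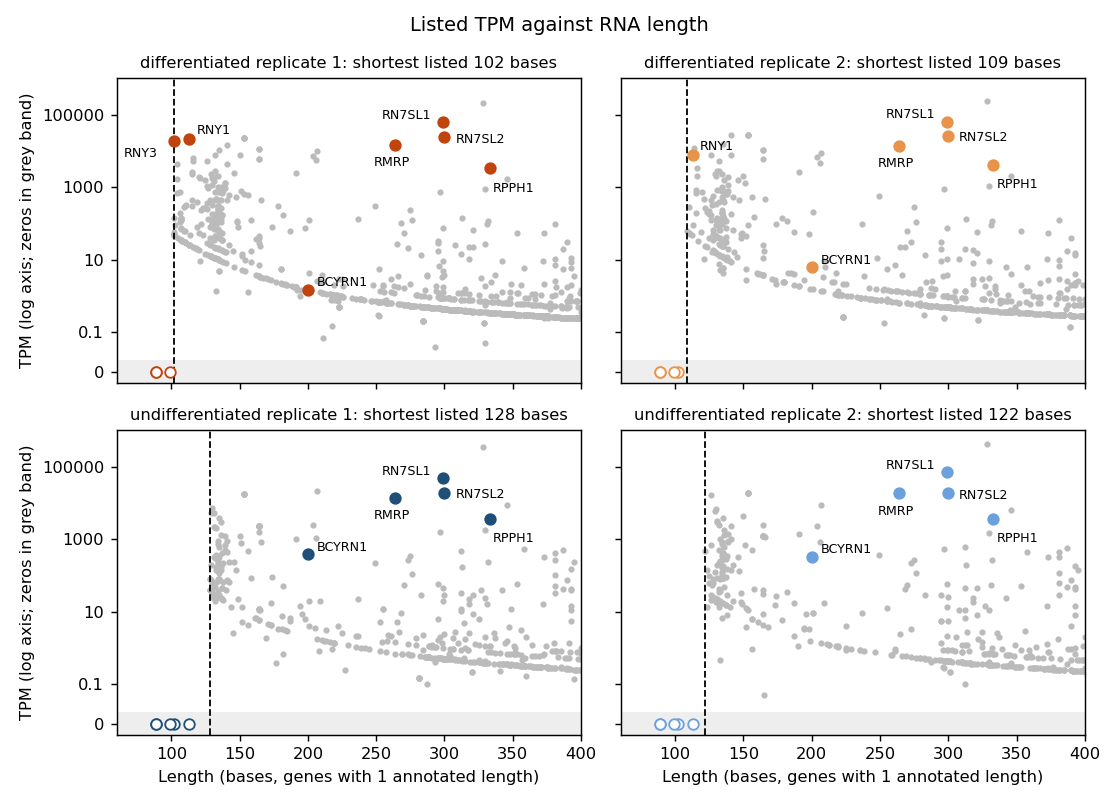
TPM on a log axis against RNA length for genes with a single annotated length, 1 panel per library. Grey points are genes above 0, coloured points are the 10 RNAs (open in the grey band where listed at 0) and the dashed line marks the shortest gene above 0. RNY1 lies right of the line in the differentiated and left of it in the undifferentiated libraries, and the lower edge of the grey points climbs steeply towards the line.

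Close to the limit of differentiated replicate 1, short RNAs were listed at large TPM values. The commonest value above 0 there was 46.7 TPM at 102 bases (5 of 10 genes above 0) and 0.44 TPM at 299 bases (5 of 11 genes), a ratio of 106. RNY3 was 410 times the former value and RN7SL1 138850 times the latter, while their TPM values in that library were 19136 and 61094. RNY1 and RNY3 made up 3.98% and 0.77% of all TPM in differentiated replicates 1 and 2, and TPM of all other genes is lower there by that share.

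Relatives of the short RNAs were mostly listed at 0. RNY4, of 96 bases, and VTRNA3-1P, of 102 bases, were at 0 in all 4 libraries, although VTRNA3-1P reaches the limit of differentiated replicate 1. VTRNA2-1, of 128 bases, was at 63.3 TPM in undifferentiated replicate 2 and at 0 elsewhere, although its length reaches the limit in all 4 libraries. Of 758 rows named Y_RNA, 14 and 2 were above 0 in the differentiated and 0 and 0 in the undifferentiated libraries, and 0 of 54 other rows starting with RNY were above 0. All 53 windows of 50 bases in RNY3 and 16 of 64 in RNY1 occur in another gene, and over those windows reads from a Y RNA and from its copies cannot be told apart. RNU6ATAC, a spliceosomal RNA of 126 bases, was at 1071 and 435 TPM in the differentiated libraries, at 0 in undifferentiated replicate 1, whose limit is above its length, and at 678 TPM in undifferentiated replicate 2.

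The stage differences of the 4 long RNAs depended on what they were measured against. RN7SK, the RNA that holds back transcription elongation and the largest in every library, made up 20.9% and 23.5% of all TPM after differentiation and 35.5% and 41.7% before it. With RN7SK left out and TPM rescaled, the differences were -0.26 for RN7SL1, -0.49 for RMRP, -0.33 for RPPH1 and 0.07 for RN7SL2. Scaled instead to the summed TPM of protein-coding genes they were 0.65 for RN7SL1, 0.41 for RMRP, 0.58 for RPPH1 and 0.98 for RN7SL2. RN7SL1, RMRP and RPPH1 thus changed sign between scalings, and BCYRN1 did not. RN7SL2 kept its sign, but without RN7SK its difference was only 0.07 and its stages overlapped. The median of all genes tested was -0.14 as deposited, -0.41 without RN7SK and 0.37 over protein-coding genes. Set against RN7SK itself, RN7SL1 amounted to 0.292 and 0.266 in the differentiated and 0.136 and 0.169 in the undifferentiated libraries. RMRP amounted to 0.0711 and 0.0599 against 0.039 and 0.0447. RN7SL2 (0.114 and 0.11 against 0.0532 and 0.0443) and RPPH1 (0.0159 and 0.0174 against 0.0103 and 0.00872) were higher likewise. The stages did not overlap for any of the 4 ratios, nor for RN7SK, the divisor, which was lower after differentiation. A gene with equal TPM in all 4 libraries would not overlap on this measure either. The lack of overlap is therefore no result about the 4 RNAs. How many of all genes would not overlap on this measure was not counted.

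**Figure D3:**
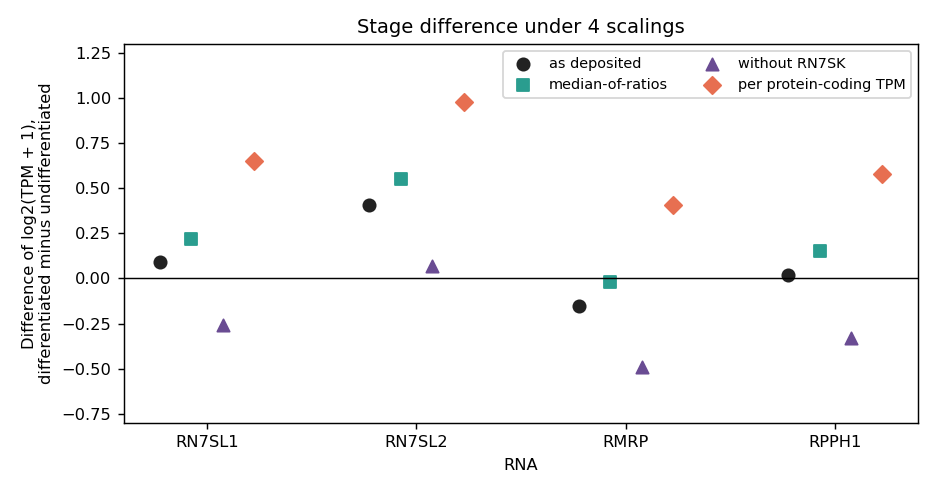
Difference of mean log2(TPM + 1) between the stages for the 4 long RNAs as deposited, after median-of-ratios scaling, without RN7SK and relative to protein-coding TPM. RN7SL2 is above 0 under all 4 scalings (0.07 to 0.98), and the other RNAs lie on both sides of 0.

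Among 2133 genes averaging at least 10 TPM, the profiles most like each RNA were found by the root mean square difference of centred log2(TPM + 1) values over the 4 libraries. For RMRP these were SZRD1 (0.077), SNHG22 (0.108) and COX8A (0.112). The nearest to RPPH1 was SCARNA12 (0.044), followed by MDH2 (0.064) and PRR13 (0.067). RN7SL1 was nearest to RAB11B (0.049), RPL41P2 (0.098) and SNORA70 (0.112). RN7SL2 was nearest to UBXN1 (0.054) and to the 5.8S ribosomal RNA rows RNA5-8SN3 and RNA5-8S4 (0.063 each), which carry identical values. BCYRN1 had no neighbour as close. Its nearest were the immunoglobulin gene IGHV2-70 (0.546), DNTT (0.66), the polymerase of V(D)J joining, and the immunoglobulin row AC245369.1 (0.678). The distances of BCYRN1 include the spread between its low differentiated values, 1.46 and 6.12 TPM. With 4 libraries in 2 stages, such likeness rests on few points, and these are the values on which the RNAs were chosen.

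The proteins that bind these RNAs were not used to choose them and were tested within a fit over all genes (limma, Benjamini-Hochberg adjusted p below 0.05 called). Of 28 listed partner proteins 27 were tested, 2 rose, 8 fell and 17 did not pass the test. That is 37% called, near the 41.4% of all tested genes (18.6% higher and 22.8% lower), and their median difference was -0.25 against -0.14 for all genes.

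Among the vault proteins the 2 called members rose. MVP, which forms the shell of the vault, stood at 4.55 and 8.12 TPM after differentiation and at 0.15 and 0.09 TPM before it, a difference of 2.67 ± 0.35 (SE, adjusted p = 6.00e-05). TEP1, which binds vault RNA, was listed at 6.11 and 5.16 against 1.85 and 1.56 TPM (1.29 ± 0.38, adjusted p = 0.0144). PARP4, the vault ADP-ribosyltransferase, was at 7.66 and 7.61 against 7.91 and 4.03 TPM and did not pass the test, but was called higher under 2 alternatives. The vault RNAs themselves gave no value above 0 to set beside these proteins.

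Of the 8 SRP proteins and receptor subunits, 2 fell and 6 did not pass. SRP9, which forms with SRP14 the dimer that binds the Alu domain of 7SL and BCYRN1, stood at 14.2 and 12.5 TPM after differentiation and at 113 and 89.5 TPM before it (-2.82 ± 0.36, adjusted p = 4.97e-05). Its partner SRP14 was at 30.9 and 35.9 against 50.1 and 31.4 TPM, with overlapping stages (adjusted p = 0.64). SRP72 fell as well, from 60.7 and 43.7 to 18.8 and 22.6 TPM (-1.28 ± 0.37, adjusted p = 0.0139), whereas SRP68, which it pairs with, had overlapping stages at 4.05 to 7.09 TPM. SRP54, which recognises the signal peptide, SRP19 and the receptor subunit SRPRB also had overlapping stages. SRPRA was at 10.1 and 9.79 against 8.45 and 4.66 TPM and was not called, but was called higher under 3 alternatives. SRP54 and SRPRB were called lower without undifferentiated replicate 2.

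Of 6 proteins that bind Y RNAs, 4 fell and 2 did not pass. SSB, the La protein that binds the ends of new RNA polymerase III transcripts, stood at 15 and 12.8 TPM after differentiation and at 81.7 and 50.8 TPM before it (-2.14 ± 0.38, adjusted p = 0.00061). The abundant nuclear RNA-binding proteins NCL, HNRNPK and PTBP1 fell as well. NCL fell by 1.91 (adjusted p = 0.00106), HNRNPK fell by 1.39 (adjusted p = 0.00801) and PTBP1 fell by 1.29 (adjusted p = 0.0137). The Ro60 gene, listed under its older symbol TROVE2, was at 4.37 and 4.22 against 7.27 and 3.44 TPM, with overlapping stages, and PUF60 overlapped likewise.

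Of the 10 tested proteins of RNase P and MRP, 2 fell and 8 did not pass. RPP40 stood at 1.99 and 0.98 TPM after differentiation and at 16.1 and 9.26 TPM before it (-2.44 ± 0.42, adjusted p = 0.000456), and RPP21 at 1.01 and 1.83 against 10.5 and 6.91 TPM (adjusted p = 0.00143). POP4 and POP5 overlapped between the stages at 8.79 to 13.3 and 3.42 to 5.23 TPM, as did RPP25L and RPP38. POP1, POP7, RPP14 and RPP30 had higher undifferentiated values without overlap and were not called, RPP14 with an adjusted p of 0.0527. RPP14 and RPP30 were called lower under 3 alternatives and POP7 under 1. RPP25 was at most 0.09 TPM and not tested. SRP9 and MVP kept their calls under every alternative that could be fitted, and without differentiated replicate 1 or without differentiated replicate 2 these were the only calls left among the 27 (1 higher, 1 lower).

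**Figure D4:**
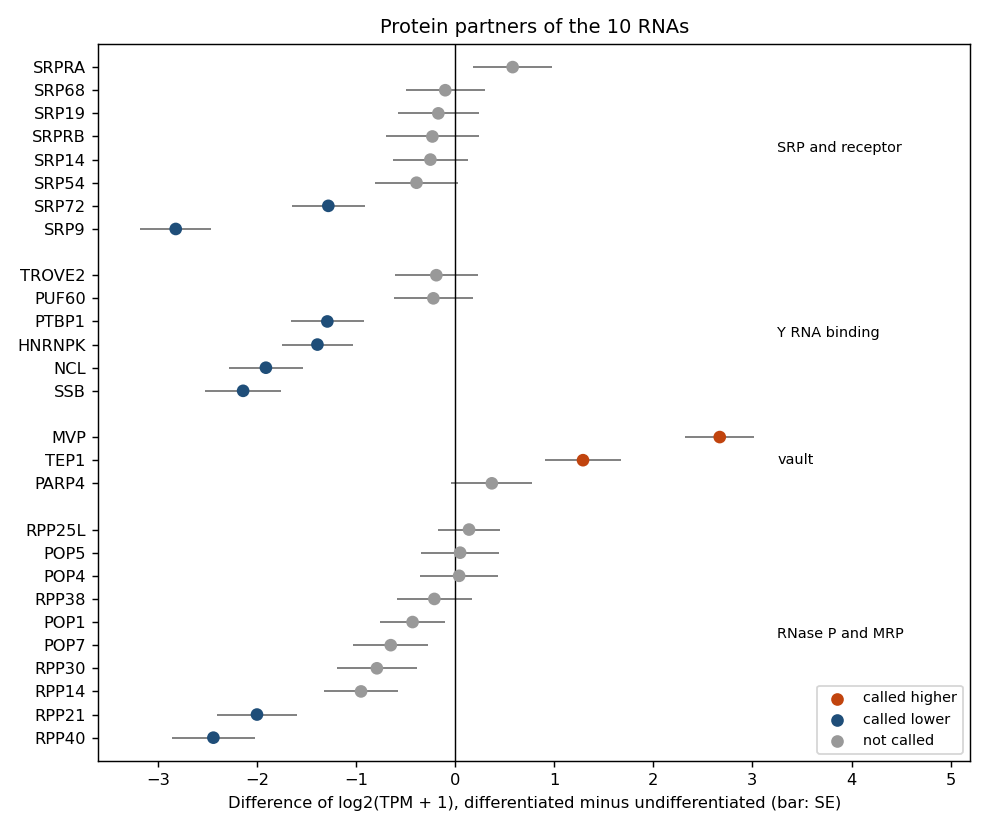
Difference of mean log2(TPM + 1), differentiated minus undifferentiated, with its SE for the 27 tested partner proteins in 4 groups. MVP (2.67) and TEP1 (1.29) are called higher, 8 genes are called lower with SRP9 (-2.82) the lowest, and grey points were not called.

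The listed genes of the general RNA polymerase III machinery, its repressor included, had a median difference of -0.71, against -0.14 for all genes tested. Not every gene of this list acts at each of the 10 RNAs. Of 37 listed genes 33 were tested, of which 1 rose, 8 fell and 24 did not pass, 27.3% called against 41.4% of all genes. This share depended on the setting: 19 of 34 (55.9%, against 56% of all genes) were called after median-of-ratios scaling, 20 of 35 (57.1% against 48.4%) without RN7SK, 23 of 33 (69.7% against 55.5%) without undifferentiated replicate 2, and 0 of 33 without differentiated replicate 1 or without differentiated replicate 2. The member that rose was MAF1, the repressor of RNA polymerase III, listed at 14.9 and 22.2 TPM in the differentiated and 8.57 and 5.84 TPM in the undifferentiated libraries (1.25 ± 0.40, adjusted p = 0.0227). POLR3G, an alternative subunit of the polymerase, was at 0.11 and 0.52 against 5.66 and 4.14 TPM (-2.17 ± 0.34, adjusted p = 0.0002). POLR3GL, which takes its place in other cells, was at 3.1 and 4.06 against 3.02 and 1.75 TPM and was not called (adjusted p = 0.376), but was called higher over protein-coding genes (1.13, adjusted p = 0.0136).

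Of 12 tested polymerase subunits and assembly partners, 4 fell, and besides POLR3G the largest called difference was that of POLR1C (-1.35 ± 0.43, adjusted p = 0.0231). Among the 5 subunits shared with other polymerases POLR2K (-1.63 ± 0.38, adjusted p = 0.00378) and POLR2L (-1.18 ± 0.37, adjusted p = 0.0212) fell. Of 10 tested genes of the factors TFIIIA, TFIIIB and TFIIIC, GTF3C6 alone was called (-1.20 ± 0.40, adjusted p = 0.0293). BRF1, used at genes with internal promoters such as those of the vault RNAs, was at 1.37 and 1.78 against 2.72 and 2 TPM and was not called. BRF2, used at genes with upstream promoters such as those of RMRP, RPPH1 and Y RNAs, was at 0.68 to 0.9 TPM and not tested. Of the SNAPc subunits that act at the latter promoters, SNAPC5 fell from 8.32 and 9.21 to 2.53 and 3.81 TPM (-1.24 ± 0.39, adjusted p = 0.0207), and SNAPC2 and SNAPC4 were not tested. SNAPC1 and SNAPC3 were not called as deposited, but both were called lower with median-of-ratios factors (adjusted p = 0.0327 and 0.0426), without RN7SK (0.0382 each) and without undifferentiated replicate 2 (0.00918 and 0.0124). POLR2L and SNAPC5 lost their calls when scaled over protein-coding genes (adjusted p = 0.06 and 0.051), and the calls of POLR3K, POLR2L and GTF3C6 were lost with a replicate block (adjusted p = 0.0752, 0.0654 and 0.0583). GTF3C6 was also not called without undifferentiated replicate 1 (adjusted p = 0.0536).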

How the data were processed

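Total RNA of 4 BLaER1 libraries had been turned into stranded libraries (Encore Complete, NuGEN), per the labels' protocols. The deposited values are TPM from the authors, in 1 table of 58302 genes. Per the submitters' processing notes, Trimmomatic, STAR and RSEM were used (versions not given in the sources used here, nor the genome build or annotation). Coordinates are therefore left out. Columns were assigned by sample title. Types, transcript lengths and sequences came from GENCODE release 29 (GRCh38) by Ensembl ID, found for 58039 IDs, and this need not be the authors' annotation. Some member sequences are not reported here. The members, lists and tests were chosen with earlier results of these data known.

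The 10180 genes that reached 1 TPM in 2 libraries or more were compared on log2(TPM + 1) with limma 3.58.1 in R 4.3.3 (moderated variances with a trend, two-sided, 2 residual and 10.9 prior degrees of freedom). This scale understates the change of low genes. Named were the 10 RNAs, all tested partner proteins, MAF1, SNAPC genes, BRF1, BRF2, POLR3G, POLR3GL and up to 2 called genes per polymerase III list and direction with the largest difference. The procedure was tested on simulated data in which every gene was set above its measured level, with a common spread and large changes. That test therefore does not show how the fit performs for low genes or small differences. An exact permutation test of 2 against 2 libraries could not reach the threshold and was not used. Alternatives covered the pseudocount, filter, scaling, replicate block and each library left out.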

Additional observations from a re-analysis of the deposited data

How the results depend on the processing

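As deposited, 4216 genes were called, 44.8% of them higher. The count was 1260 (54.5% higher) without a filter on low values, 2436 with a filter of 5 TPM, and 1271 to 5652 with a library left out in turn, lowest without differentiated replicates 2 and 1 (1271 and 1293). The share of calls that were higher was 32.3% after rescaling without RN7SK and 65.6% over protein-coding genes, and with a library left out it was 73.4% and 73.5% without differentiated replicates 1 and 2, 56.4% and 32.4% without undifferentiated replicates 1 and 2. Partner proteins went from 10 calls to 2 without a filter, and to between 2 and 14 with a library left out. Polymerase III genes went from 9 calls to 1 without a filter, 19 after median-of-ratios scaling, 20 without RN7SK and 0 to 23 with a library left out. Leaving out a library leaves a stage with a lone sample, assumed to vary like the other stage. The labels do not say that equal replicate numbers pair libraries, and deviations of same-numbered libraries correlated with -0.024 across genes. With a replicate block 3766 genes, 10 partner proteins and 6 polymerase III genes were called. Without a filter or without either differentiated library, every called gene named lost its call except SRP9, MVP and, without a filter, POLR3G. Partner proteins that gained a call (limma adjusted p) were RPP14 (0.0109), RPP30 (0.0306) and SRPRA (0.0254) after median-of-ratios scaling, POP7 (0.0361), RPP14 (0.011) and RPP30 (0.0261) without RN7SK, PARP4 (0.0174) and SRPRA (0.0058) over protein-coding genes, PARP4 (0.0443) and SRPRA (0.025) without undifferentiated replicate 1, and RPP14 (0.0121), RPP30 (0.0129), SRP54 (0.04) and SRPRB (0.028) without undifferentiated replicate 2.

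Of the 10 RNAs, the 5 above 0 in all libraries gave a value under each scaling. RN7SL2 went from 0.41 to 0.55 after median-of-ratios scaling, 0.07 without RN7SK, 0.98 over protein-coding genes and 0.17 when summed with RN7SL1 (chosen after seeing the data). RMRP went from -0.15 to -0.49 without RN7SK and 0.41 over protein-coding genes, RPPH1 from 0.02 to -0.33 and 0.58, and RN7SL1 from 0.09 to -0.26 and 0.65. BCYRN1 moved by less than its spread of 0.77 under each scaling. With a library left out in turn, RN7SL2 ranged from 0.35 to 0.48 and BCYRN1 from -7.18 to -5.65. RMRP ranged from -0.36 to 0.06 (above 0 without undifferentiated replicate 2), RN7SL1 from -0.19 to 0.36 (below 0 without undifferentiated replicate 1) and RPPH1 from -0.14 to 0.17 (below 0 without differentiated replicate 2). The share of RN7SL1 and RN7SL2 was 8.49%, 8.86%, 6.71% and 8.89% (differentiated, then undifferentiated libraries) and 10.7%, 11.6%, 10.4% and 15.2% without RN7SK in the sum. Depth is unknown, so no detection limit could be computed.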
